A study of Danio rerio with 16 samples.

Results

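The expression of *piwil1*, *piwil2*, *pld6* and *gpat2*, which act in the piRNA pathway, was followed in zebrafish primordial germ cells (PGCs) and in the somatic cells of the same stages. The 4 genes were taken by name as members of this pathway. They are ENSDARG00000041699 (*piwil1*), ENSDARG00000062601 (*piwil2*), ENSDARG00000059951 (*pld6*) and ENSDARG00000053575 (*gpat2*), 4 of the 34289 gene rows of the expression tables, and all 4 passed the filter on low counts that left 20536 genes to test. The study asked how the transcriptome and the DNA methylome of PGCs develop in comparison with the soma. RNA-seq was performed on PGCs and on somatic cells sorted at 4, 7, 24 and 36 hours post fertilisation (hpf), in 8 groups of 2 replicate libraries, or 16 libraries in all. Every embryo carried the same transgene, *kop-EGFP-F'-nos3*-3'UTR-*cry-DsRed*, in which the maternal *kop* promoter drives a farnesylated EGFP whose *nos3* 3' UTR keeps it in germ cells, so that sorting by fluorescence separated PGCs from soma. Per the study's methods, embryos older than 24 hpf were kept in *N*-phenylthiourea to block pigment, in PGC and soma groups alike, so this agent goes with the latest stage and cannot be told apart from it.

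Piwi-interacting RNAs (piRNAs) are small RNAs of the animal germline that guide Piwi proteins to the transcripts of transposons and silence them. *piwil1* (also called ziwi) and *piwil2* (zili) encode the Piwi proteins of zebrafish, which bind piRNAs and reside largely in the perinuclear granules of germ cells. *pld6* encodes the zebrafish relative of fly Zucchini, an endonuclease on the outer membrane of mitochondria that cuts piRNA precursors in flies and mice, and *gpat2* encodes a mitochondrial acyltransferase family member that is needed for piRNA production in mouse germ cells. The egg supplies the embryo with RNA before its own genome is active, and in zebrafish part of that RNA is held in germ plasm, the cytoplasm that founds the PGCs.

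The libraries held between 2825775 and 15633266 expected counts, and levels are given as counts scaled to a common total by the TMM method (CPM). A count of 3 in a library corresponded to between 0.182 and 0.719 CPM. The sort was checked with 5 germline markers (*nanos3*, *dnd1*, *ddx4*, *tdrd7a* and *dazl*). Their summed level was between 572 and 7914 CPM in PGC libraries and between 1.77 and 205 CPM in soma libraries, with no overlap, and 2 of the 5 (*ddx4* and *tdrd7a*) belong to the piRNA pathway themselves. These 2 were the largest parts of the sum in every PGC library, as with 1630 and 2522 of 5620 CPM in PGC 4 hpf replicate 1. The transgene used for sorting carries the *nos3* 3' UTR, and whether its reads count as *nanos3* was not examined. For soma 24 hpf replicate 1 the source name says PGCs, whereas its title and its cell type say soma, and its marker sum of 4.84 CPM lay with the soma libraries. The summed level of 12 markers of muscle, blood, neurons, skin and vessels did not separate the libraries in the same way. At 24 hpf it was 11830 and 24858 CPM in the PGC libraries against 12357 and 23438 CPM in soma. In PGCs its largest parts were *actc1b* (6759 and 12319 CPM) and *krt4* (2873 and 7549 CPM). Of the 12 genes, 5 were lower in both PGC libraries than in both soma libraries (*hbae3*, *alas2*, *neurod1*, *kdrl* and *krt4*), and 7 overlapped. The blood gene *hbae3* was at 39.9 and 43.9 CPM in PGCs against 163 and 161 CPM in soma. At 36 hpf 10 of the 12 were lower, with sums of 3678 and 1216 CPM in PGCs against 6078 and 22270 CPM in soma. At 4 hpf the sums were 245 and 176 CPM in PGCs against 166 and 197 CPM in soma, and at 7 hpf 5000 and 2638 CPM against 359 and 1235 CPM. Nearly all of the sums of 7 hpf came from the skin genes *krt4*, *krt5* and *cyt1*. *krt4* was at 3179 and 1653 CPM in PGCs against 232 and 766 CPM in soma. The muscle gene *actc1b* was at 0.175 and 0.470 CPM in PGCs of that stage. *hbae1.1* and *neurod1* were at 0 in all libraries of these 2 early stages, and no marker was at 0 throughout a later stage. The study estimated the sorted PGCs to be nearly pure, by a measure that was not examined here. It also used the same 5 germline markers to assess purity and reported them as strongly enriched in PGCs. In bulk samples, fewer germ cells among the sorted cells and less RNA per germ cell cannot be told apart from the counts.

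The levels of all 4 genes overlapped between PGCs and soma at the first stage. At 4 hpf *piwil1* was at 52.7 and 58.2 CPM in the PGC libraries and at 49.9 and 58.1 CPM in the soma libraries. *piwil2* was at 36.5 and 32.2 CPM in PGCs and at 38.1 and 19.2 CPM in soma. The PGC values of both genes lay within the spread of the soma values or overlapped it. *pld6* was the lowest of the 4, at 3.97 and 3.32 CPM in PGCs and 4.79 and 2.13 CPM in soma, and *gpat2* was at 43.7 and 48.1 CPM in PGCs and 37.4 and 54.6 CPM in soma. For these genes the PGC libraries fell between the soma libraries.

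At 4 hpf no member was called (0 of 4), where 0.0438% of all genes were called in either direction. A gene was called where edgeR's quasi-likelihood test, fitted on all 16 libraries with Benjamini-Hochberg adjustment over all 20536 genes, gave an adjusted p under 0.05 and a log2 fold change past 1.5. The log2 fold changes of PGCs over soma were 0.04 ± 0.67 (SE) for *piwil1*, 0.26 ± 0.61 for *piwil2*, 0.08 ± 0.94 for *pld6* and −0.01 ± 0.48 for *gpat2*, each with an adjusted p of 1, and 0 of 4 had an unadjusted p under 0.05. The 95% interval ran from −1.06 to 1.05 for *gpat2* and from −1.97 to 2.13 for *pld6*, so a difference of several-fold in *pld6* was not detectable at this depth. DESeq2 and limma called 0 of 4 as well. The germline marker *dazl*, at a log2 fold change of 4.31 ± 0.80, was not called at 4 hpf either (adjusted p = 0.1285 by edgeR's quasi-likelihood test). The lack of a call at this stage therefore does not show equal levels. The RNAs of 2 other piRNA pathway genes stood apart at this stage, *ddx4*, which encodes the germ cell RNA helicase Vasa (log2 fold change 4.47 ± 0.60, adjusted p = 0.0116 by edgeR's quasi-likelihood test), and *tdrd7a*, a Tudor protein of germ granules (5.28 ± 0.74, adjusted p = 0.0144). The study had listed both as higher in PGCs at 4 hpf on these same libraries, so these 2 calls are not independent evidence.

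**Figure D1:**
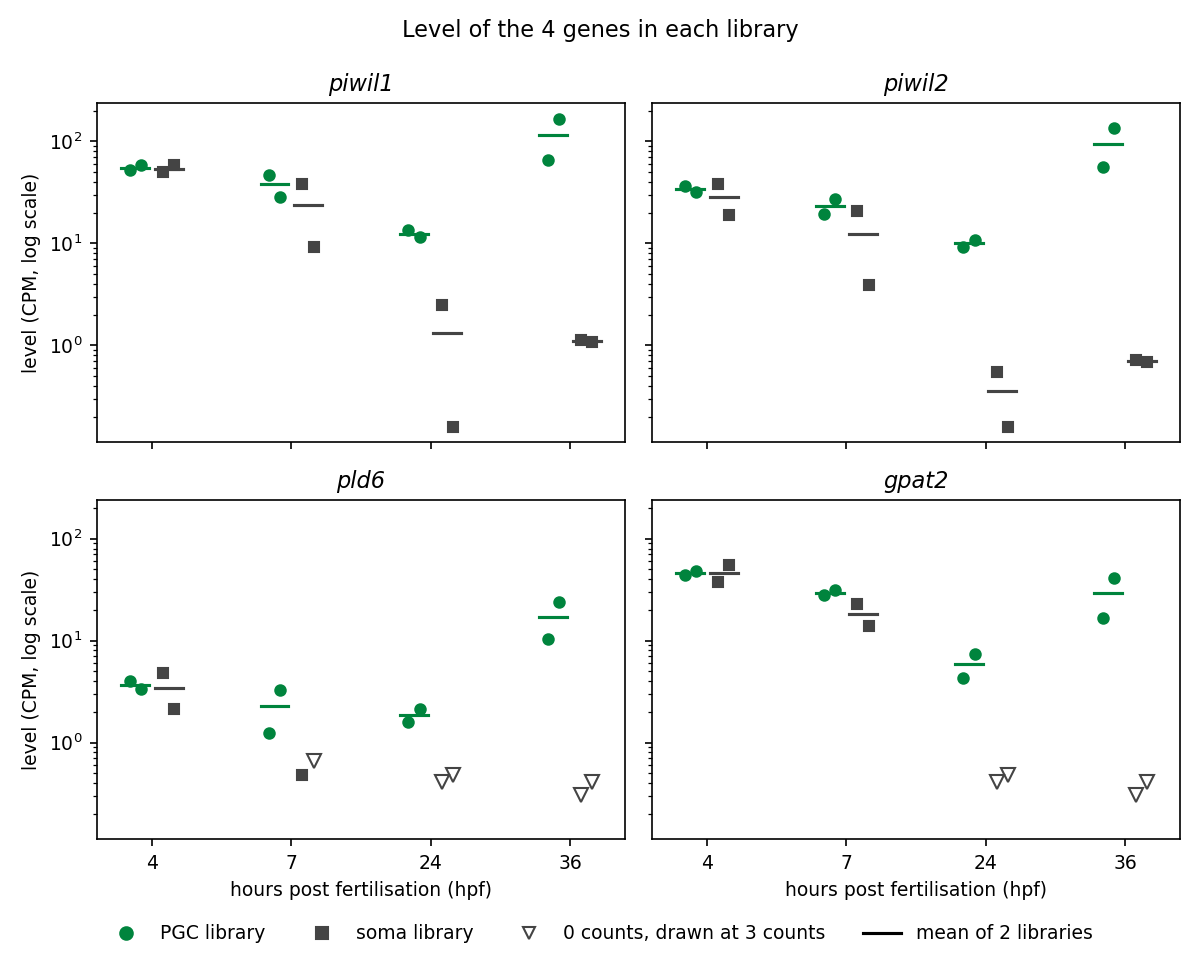
Level of each of the 4 genes in every library (CPM, log scale) at 4, 7, 24 and 36 hpf, with PGC libraries as green circles, soma libraries as grey squares, the mean of 2 libraries as a bar, and open triangles at the value of 3 counts for libraries with 0 counts. PGC and soma libraries share a range at 4 hpf, and at 36 hpf the PGC libraries of *piwil1* are at 65.6 and 168 CPM against 1.12 and 1.09 CPM in soma.

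At 7 hpf the soma libraries of both Piwi genes stood far apart from each other. *piwil1* was at 47.3 and 28.4 CPM in PGCs and at 38.2 and 9.19 CPM in soma, and *piwil2* was at 19.6 and 27.0 CPM in PGCs and at 20.6 and 3.94 CPM in soma. In both genes soma replicate 1 lay inside the range of the PGC libraries and soma replicate 2 below it. *gpat2* was at 28.2 and 31.0 CPM in PGCs and at 22.7 and 13.8 CPM in soma. *pld6* was at 1.23 and 3.29 CPM in PGCs, where 7 and 14 counts were seen, whereas soma replicate 1 held 3 counts and replicate 2 held 0. No member was called at 7 hpf by edgeR's quasi-likelihood test, where 3.16% of all genes were called higher in PGCs. An unadjusted p under 0.05 was seen for 1 of 4 (*pld6*), and for 2646 of the 20536 genes in the same direction. The log2 fold changes were 0.67 ± 0.68 (SE, adjusted p = 0.610) for *piwil1*, 0.91 ± 0.63 (adjusted p = 0.423) for *piwil2* and 0.69 ± 0.49 (adjusted p = 0.444) for *gpat2*. In *pld6* the PGC level was at least 1.87-fold that of soma (adjusted p = 0.155). A bound of this kind divides the smaller PGC value by what 3 counts are worth in the shallower soma library, and it takes no account of counting error. Without soma 7 hpf replicate 2 the log2 fold change was −0.0045 for *piwil1* and 0.18 for *piwil2*, and without soma 7 hpf replicate 1 it was 2.05 and 2.56, so the size of both at this stage depended on which soma library was kept. DESeq2 and limma also called 0 of 4.

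By 24 hpf *pld6* and *gpat2* had no counts in soma, *piwil1* and *piwil2* few, and all 4 genes had their lowest mean level in PGCs. *gpat2* had 35 and 52 counts in the PGC libraries, or 4.30 and 7.36 CPM, and 0 counts in both soma libraries. *pld6* had 13 and 15 counts in PGCs, or 1.60 and 2.12 CPM, and 0 counts in both soma libraries. *piwil2* was at 9.21 and 10.9 CPM in PGCs against 0.553 and 0.159 CPM in soma. For *piwil1*, at 13.5 and 11.5 CPM in PGCs, soma replicate 1 held 18 counts (2.49 CPM) and replicate 2 held 1 count (0.159 CPM). None of the 4 genes overlapped between PGCs and soma, and 20.4% of all genes had both PGC libraries above both soma libraries. *gpat2*, with a PGC level at least 9.03-fold that of soma, was the 1 member called (adjusted p = 0.0175 by edgeR's quasi-likelihood test), where 0.039% of all genes were called higher. The log2 fold change of *piwil2* was 4.72 ± 0.85 (SE, adjusted p = 0.0957) and that of *piwil1* was 3.18 ± 0.81 (adjusted p = 0.569), and for *pld6* the PGC level was at least 3.35-fold that of soma (adjusted p = 0.603). All 4 had an unadjusted p under 0.05, as had 492 of the 20536 genes in the same direction. The value of *piwil1* depended on the soma libraries, being 6.15 without soma 24 hpf replicate 1 and 2.32 without soma 24 hpf replicate 2. The call of *gpat2* was lost without soma 24 hpf replicate 1 (adjusted p = 0.329), without soma 24 hpf replicate 2 (0.102) and without PGC 24 hpf replicate 2 (0.0630), and DESeq2 called 3 of the 4 genes. *piwil2* was called without PGC 36 hpf replicate 1 (adjusted p = 0.0402) and without either soma 7 hpf replicate (0.0140 and 0.0138), libraries that are not among the 4 compared. The summed level of somatic markers in the PGC libraries of this stage lay close to that in soma, though not for each marker, as given above. Its part in these differences was not tested.

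At 36 hpf all 4 genes were higher in PGCs than in soma. *piwil1* was at 65.6 and 168 CPM in PGCs against 1.12 and 1.09 CPM in soma, a log2 fold change of 6.70 ± 0.89 (SE, 104-fold, adjusted p = 0.00255 by edgeR's quasi-likelihood test). *piwil2* was at 56.2 and 134 CPM in PGCs against 0.713 and 0.679 CPM in soma, a log2 fold change of 7.06 ± 0.83 (133-fold, adjusted p = 0.00118). The lower PGC library of each Piwi gene was thus far above the higher soma library. *gpat2*, at 16.8 and 41.4 CPM in PGCs with 0 counts in both soma libraries, was at least 41.3-fold higher (adjusted p = 0.000328), and *pld6*, at 10.4 and 24.0 CPM with 0 counts in both soma libraries, was at least 25.6-fold higher (adjusted p = 0.0149). All 4 members were called higher, where 0.506% of all genes were. The study names *piwil1*, *piwil2* and *gpat2* among the genes higher in PGCs at 24 and 36 hpf and *pld6* at 36 hpf, on these same libraries, so these calls are not independent evidence. *pld6* was not called without PGC 36 hpf replicate 2 (adjusted p = 0.122), without soma 36 hpf replicate 1 (0.0664) or without soma 36 hpf replicate 2 (0.120). It was not called either when replicate numbers entered as blocks within stages (0.05002), which left 3 of 4 members called. The other 3 genes were called with the block and without any 1 library. In a fit on the 4 libraries of this stage alone the log2 fold changes of the Piwi genes were 6.72 and 7.08, yet no member was called (adjusted p between 0.262 and 0.295).

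**Figure D2:**
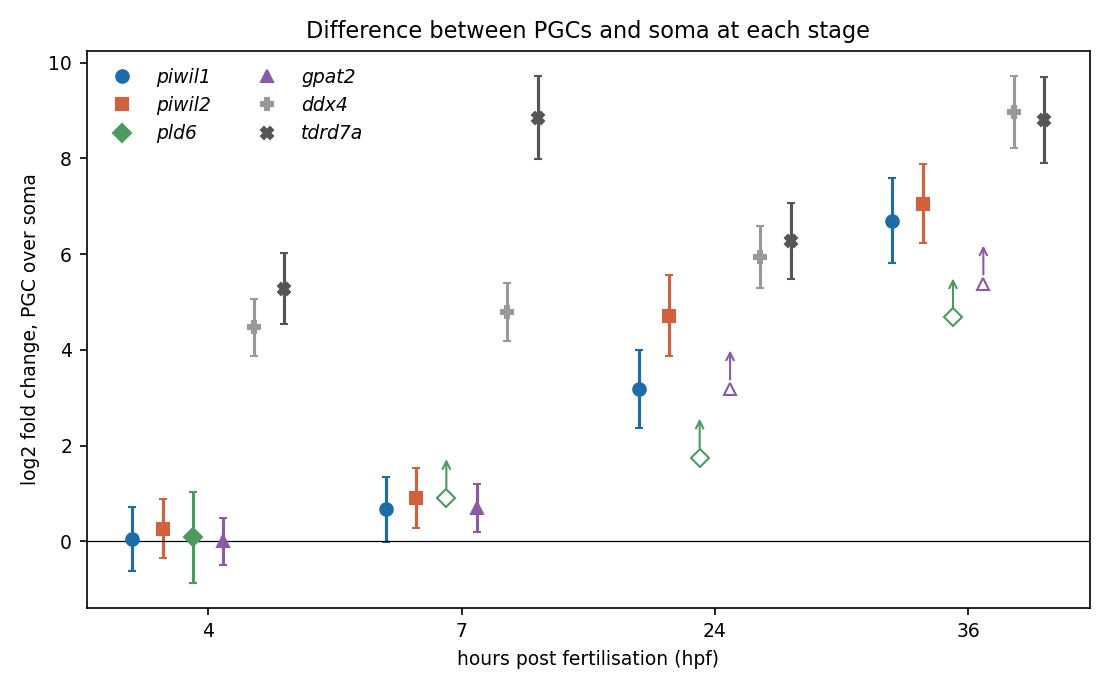
Log2 fold change of PGCs over soma at each stage for the 4 genes and for *ddx4* and *tdrd7a*, with bars of 1 standard error, and open symbols with arrows for lower bounds of genes with 3 counts or fewer in each soma library. The 4 genes lie between −0.01 and 0.26 at 4 hpf, where *ddx4* and *tdrd7a* are at 4.47 and 5.28, and *piwil1* and *piwil2* reach 6.70 and 7.06 at 36 hpf. On these libraries the study had listed *ddx4* and *tdrd7a* as higher in PGCs at 4 hpf, and the 4 genes at 36 hpf.

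Whether the gap between PGCs and soma widened was tested directly, in a comparison added after the data were seen. The change from 4 to 36 hpf was larger in PGCs than in soma by 6.66 ± 1.08 on the log2 scale (SE) for *piwil1* (adjusted p = 0.0422 by edgeR's quasi-likelihood test) and by 6.79 ± 1.00 for *piwil2* (adjusted p = 0.0227). *gpat2* was called too (adjusted p = 0.00431) and *pld6* was not (adjusted p = 0.0953). For these 2 genes the soma counts of 0 at 36 hpf leave no measured size for the difference. Thus 3 of 4 members were called, where 0.0877% of all genes were called in that direction. The calls of both Piwi genes were lost in each fit without PGC 36 hpf replicate 2 (adjusted p = 0.127 and 0.0789) or without either PGC 4 hpf, either soma 36 hpf or the first soma 4 hpf library. That of *piwil1* was also lost without either PGC 7 hpf, either PGC 24 hpf or the second soma 4 hpf library (adjusted p between 0.0562 and 0.0954). It was made in 5 of 16 such fits, against 10 for *piwil2* and 16 for *gpat2*. Between neighbouring stages no member was called for such a difference, from 4 to 7, 7 to 24 or 24 to 36 hpf (0 of 4 each), where 0%, 0.131% and 0% of all genes were called. For these 3 steps 0, 3 and 1 of the 4 members had an unadjusted p under 0.05, as had 2232, 2473 and 788 of the 20536 genes. DESeq2 called 0, 2 and 0 members, and its shares over all genes are not given here. The last step could not be decided for *pld6* and *gpat2*, which had 0 counts in soma at both 24 and 36 hpf. Averaged over the 4 stages all 4 genes were called higher in PGCs, where 1.46% of all genes were, with log2 fold changes of 2.65 ± 0.38 for *piwil1* (adjusted p = 0.00228) and 3.24 ± 0.36 for *piwil2* (adjusted p = 0.000322). Both this average and the difference from 4 to 36 hpf draw on the contrast of 36 hpf, in which the study had listed these genes. They are therefore not independent evidence either.

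In soma both Piwi genes and *gpat2* fell between 7 and 24 hpf. *piwil1* fell by 4.11 on the log2 scale (SE 0.82, adjusted p = 0.00193 by edgeR's quasi-likelihood test) and *piwil2* fell by 5.02 (SE 0.86, adjusted p = 0.000717). *gpat2* went from 22.7 and 13.8 CPM to 0 counts in both libraries, at least 28.9-fold lower (adjusted p = 6.90e-05). These 3 of 4 members were called lower, where 8.76% of all genes were. The size of the change of *piwil1* depended on single libraries, being −7.07 without soma 24 hpf replicate 1 and −2.73 without soma 7 hpf replicate 1, and that of *piwil2* was −6.13 and −3.36 in the same fits. Both were called in each of the 16 fits that leave out 1 library. The call of *piwil2* was lost with limma on log2(TPM + 0.1) (−2.73, adjusted p = 0.0702) and on log2(TPM + 1) (−1.35, adjusted p = 0.201). *pld6* was already at least 3.25-fold lower at 7 than at 4 hpf (adjusted p = 0.0426), the 1 member called in a step where 9.37% of all genes were called lower. That call was made in 9 of the 16 fits that leave out 1 library and lost in the others, among them those without soma 7 hpf replicate 2 (adjusted p = 0.188), without soma 4 hpf replicate 1 (0.184) and without PGC libraries of other groups (at most 0.0660). It was also lost when replicate numbers entered as a block (0.0516) and with limma on log2(TPM + 1) (0.244). Without soma 7 hpf replicate 1, on the other hand, *piwil1* (adjusted p = 0.0496) and *piwil2* (0.0135) were called lower in this step as well. From 24 to 36 hpf no member was called in soma (0 of 4, with 0 of 4 at an unadjusted p under 0.05 and 0 of 4 by DESeq2). *pld6* and *gpat2* had 0 counts in soma at both stages, so the test could not show a change in them. *piwil1* and *piwil2* had at most 18 and 7 counts in any soma library of these stages. No gene of the 20536 was called in this step, with 2101 at an unadjusted p under 0.05 and 308 called by DESeq2. From 4 to 36 hpf all 4 were called lower in soma, where 10.2% of all genes were, by 5.59 (SE 0.86) for *piwil1* and 5.32 (SE 0.79) for *piwil2* on the log2 scale, at least 91.8-fold for *gpat2* and at least 5.23-fold for *pld6*, with adjusted p-values between 1.35e-05 and 0.00277. Of these, the call of *pld6* was lost with limma on log2(TPM + 1) (adjusted p = 0.116). The falls from 7 to 24 and from 4 to 36 hpf end in soma libraries that the study had compared with PGCs. From those comparisons it had listed the genes called here as higher in PGCs. The calls of these falls are therefore not independent evidence.

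In PGCs the same transcripts had their lowest mean at 24 hpf. From 4 to 7 hpf the log2 fold changes were between −0.70 and −0.55 and no member was called (0 of 4, with 0 of 4 at an unadjusted p under 0.05 and 0 of 4 by DESeq2), where 7.11% of all genes were called. From 7 to 24 hpf *gpat2* fell by 2.34 on the log2 scale (SE 0.52, adjusted p = 0.00579 by edgeR's quasi-likelihood test), the 1 member called, where 5.97% of all genes were called lower. The change of *piwil1* was −1.60 (SE 0.69, adjusted p = 0.0944), that of *piwil2* −1.21 (adjusted p = 0.157) and that of *pld6* −0.26 (adjusted p = 0.865). The call of *gpat2* was lost without PGC 24 hpf replicate 1 (adjusted p = 0.0618).

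From 24 to 36 hpf the 3 genes with the higher counts rose in PGCs. *piwil1* rose by 3.22 on the log2 scale (SE 0.73, 9.32-fold, adjusted p = 0.0373 by edgeR's quasi-likelihood test), *piwil2* by 3.24 (SE 0.66, 9.44-fold, adjusted p = 0.0231) and *gpat2* by 2.32 (SE 0.52, 4.99-fold, adjusted p = 0.0418). *pld6* had a log2 fold change of 3.20 (SE 0.99, adjusted p = 0.133) and was not called, although both libraries of 36 hpf were above both of 24 hpf, as was so for all 4 members and for 24.9% of all genes. Thus 3 of 4 members were called higher, where 0.185% of all genes (38 genes) were. The rise ends in the PGC libraries of 36 hpf, on which the study had listed all 4 genes as higher than in soma. These calls are therefore not independent evidence either, and the same holds for other changes that end in these libraries. None of the 4 was called without PGC 36 hpf replicate 2, when the log2 fold changes of *piwil1* and *piwil2* were 2.39 and 2.48 (adjusted p = 0.287 and 0.213), nor without PGC 24 hpf replicate 1 (adjusted p = 0.180 and 0.154) or replicate 2 (0.308 and 0.184). The call of *gpat2* was made in 7 of the 16 fits that leave out 1 library. It was lost also without either PGC 4 hpf, either PGC 7 hpf or either soma 4 hpf library (adjusted p between 0.0514 and 0.0581). With offsets from effective lengths *piwil2* was not called (adjusted p = 0.0845). *pld6* was called by DESeq2 (0.0114), by limma with either pseudocount (0.00404 and 0.0260) and without a filter (0.0479). The net change from 4 to 36 hpf was 1.07 ± 0.67 for *piwil1*, 1.47 ± 0.62 for *piwil2*, 2.24 ± 0.95 for *pld6* and −0.66 ± 0.48 for *gpat2* on the log2 scale (SE, adjusted p between 0.0746 and 0.302 by edgeR's quasi-likelihood test). By this test 0 of 4 were called, where 30.2% of all genes were. An unadjusted p under 0.05 was seen for 2 of 4, and for 9768 of the 20536 genes. DESeq2 called 2 of 4, and its share over all genes is not given here. *gpat2* was thus the 1 gene whose PGC libraries of 36 hpf were both below those of 4 hpf, where the other 3 were above them, as were 45.9% of all genes against 25.8% below.

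The 2 PGC libraries of 36 hpf differed from each other in all 4 genes by about the same factor. Replicate 1 stood at 0.391 of replicate 2 for *piwil1*, at 0.420 for *piwil2*, at 0.435 for *pld6* and at 0.406 for *gpat2*. The germline markers showed the same, with ratios from 0.307 for *dnd1* to 0.566 for *dazl* and a summed level of 934 CPM in replicate 1 against 2196 CPM in replicate 2. The sum of the somatic markers was instead higher in replicate 1 (3678 against 1216 CPM). Among them the muscle genes *actc1b* (185 against 279 CPM) and *ckma* (21.6 against 32.1 CPM) were lower in replicate 1, and the others were higher. Expressed relative to the germline marker sum, the replicates of 36 hpf came close to each other. *piwil1* amounted to 7.02% and 7.64% of the marker sum, *piwil2* to 6.02% and 6.10%, *pld6* to 1.12% and 1.09%, and *gpat2* to 1.80% and 1.89%.

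On this relative scale each of the 4 genes had its lowest value at 7 hpf and not at 24 hpf. For *gpat2*, however, replicate 1 of 24 hpf (0.579%) lay below both libraries of 4 hpf (0.777% and 0.608%). *piwil1* was at 0.938% and 0.735% of the marker sum at 4 hpf, at 0.939% and 0.414% at 7 hpf, and at 1.82% and 2.00% at 24 hpf. *piwil2* was at 0.649% and 0.406%, then at 0.389% and 0.393%, and then at 1.24% and 1.90%. Both Piwi genes were therefore higher relative to the markers in both libraries of 24 hpf than in any library of 4 or 7 hpf. Most genes rose on this scale, and 79.3% of all genes were called higher from 7 to 24 hpf in the fit given below. *pld6* moved from 0.0706% and 0.0419% at 4 hpf through 0.0243% and 0.0479% at 7 hpf to 0.215% and 0.371% at 24 hpf, and *gpat2* from 0.777% and 0.608% through 0.560% and 0.451% to 0.579% and 1.29%. At 36 hpf every member was above its 24 hpf libraries relative to the sum and to each of the 5 markers taken alone. How many of all genes were so on this scale was not counted, for this step or the earlier one. On the CPM scale, 24.9% of all genes had both libraries of 36 hpf above both of 24 hpf, a share that does not carry over to the relative scale. The markers themselves had changed between 7 and 24 hpf by −3.70 (*dnd1*) to −1.48 (*dazl*) on the log2 scale, and the gain of the Piwi genes at 24 hpf was not seen against *dazl* alone, where the libraries of both stages overlapped.

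This second scale was also tested, as an alternative chosen after the data were seen, by fitting the 8 PGC libraries alone with the germline marker sum as library size. From 7 to 24 hpf the direction of every member was then reversed, with log2 fold changes of 1.498 for *piwil1* (adjusted p = 0.0453), 2.00 for *piwil2* (0.00999), 2.99 for *pld6* (0.00845) and 0.87 for *gpat2* (0.243) by edgeR's quasi-likelihood test, and *piwil2* and *pld6* were called higher. This scaling moved all genes alike, to a median log2 fold change of 3.59 in place of 0.43, and 79.3% of all genes were called higher under it, so that the 4 genes rose relative to the sum of the 5 markers, 2 of them by the test, but lay below the median gene on both scales. Against *dazl* alone the change was −0.22 for *piwil1* and −1.05 for *gpat2*, and the libraries of *gpat2* at 7 and 24 hpf overlapped against *nanos3*, *ddx4* and *dazl*. From 24 to 36 hpf the log2 fold changes were 1.94, 1.95, 1.93 and 0.99 in the same order and no member was called (adjusted p between 0.107 and 0.443), where the median of all genes was −0.98 and 0.0487% were called higher. From 4 to 36 hpf *piwil1* (3.13, adjusted p = 0.000503), *piwil2* (3.52, 0.000139) and *pld6* (4.29, 0.000671) were called higher, where 63.3% of all genes were and the median was 2.92. With the usual TMM scaling of these 8 libraries alone, the directions were those of the fit on all 16. Among the stages, the PGC libraries of 24 hpf had the highest somatic marker sums and the lowest means of the 4 genes in CPM. Within 24 hpf, replicate 2 had the higher somatic sum (24858 against 11830 CPM). In that library *piwil2* (10.9 against 9.21 CPM), *pld6* (2.12 against 1.60) and *gpat2* (7.36 against 4.30) were higher than in replicate 1, and *piwil1* (11.5 against 13.5) was lower. The part of somatic RNA in these low values was not tested.

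**Figure D3:**
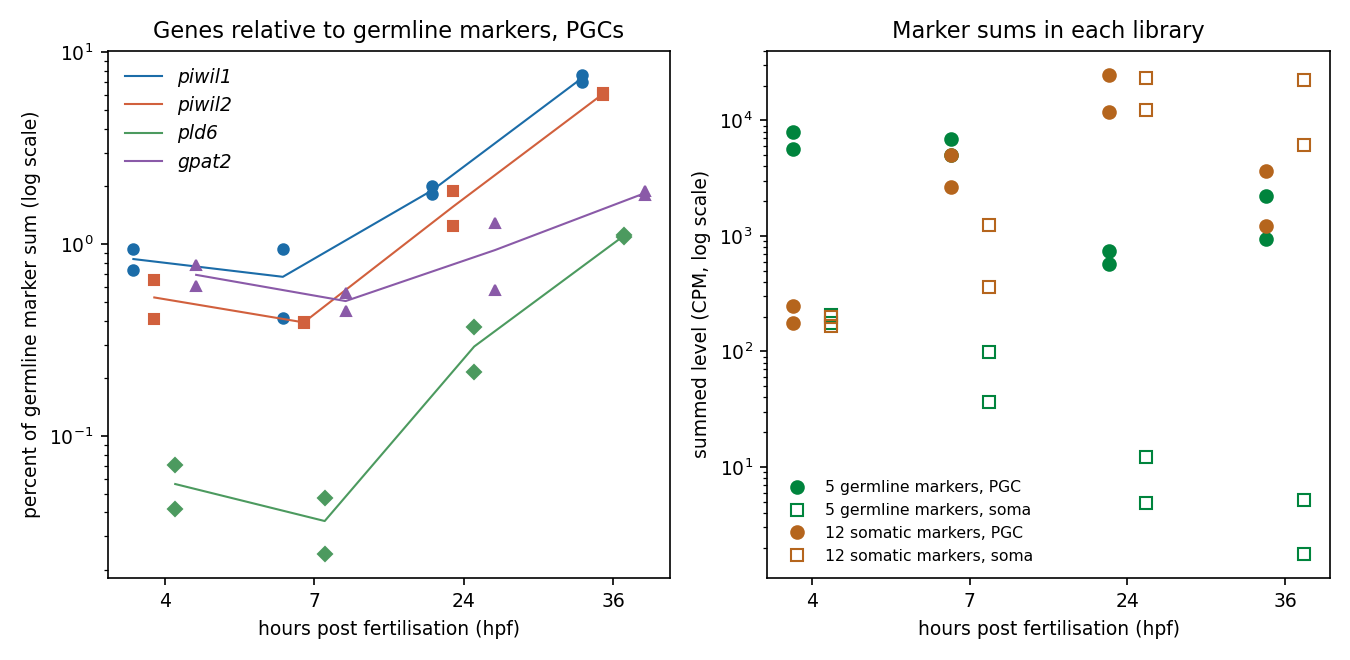
Left, level of each of the 4 genes as a percent of the summed level of 5 germline markers in each PGC library (log scale), with lines through the mean of 2 libraries at 4, 7, 24 and 36 hpf. Right, summed level (CPM, log scale) of the 5 germline markers and of 12 somatic markers in each PGC and soma library, where the somatic sums in PGCs of 24 hpf (11830 and 24858 CPM) lie on either side of those in soma (12357 and 23438 CPM).

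Between genes, levels were compared per kilobase of the effective transcript length. In PGCs of 4 hpf *piwil1* led with 29.7 and 34.7 CPM per kb, followed by *piwil2* with 22.9 and 12.6, *gpat2* with 16.03 and 18.5 and *pld6* with 2.70 and 2.26 CPM per kb. The ranges of *piwil2* and *gpat2* overlapped, whereas *pld6* was below the other 3 in every PGC library up to 24 hpf. At 36 hpf *piwil1* was at 36.6 and 82.9 CPM per kb and *piwil2* at 24.3 and 61.7, while *pld6* (7.12 and 16.4) and *gpat2* (6.95 and 17.6) had come level. Within single PGC libraries the ratio of *gpat2* to *pld6* per kb was between 5.94 and 14.98 at 4 and 7 hpf, whereas it was 1.48 and 1.70 in the libraries of 24 hpf and 0.976 and 1.07 in those of 36 hpf. *piwil1* was above *piwil2* per kb in each of the 8 PGC libraries, by a factor from 1.08 to 4.67, and the ranges of the 2 genes overlapped at 36 hpf alone. The effective length assigned to *piwil2* varied from 1595 to 3235 bases and that of *piwil1* from 1671 to 2476 bases between PGC libraries, whereas *pld6* (1463 to 1497 bases) varied less. With the median length of each gene in place of these, *piwil1* was still above *piwil2* in all 8 PGC libraries, by a factor from 1.29 to 2.95. The length thus moved the size of the ratio and not its direction.

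**Figure D4:**
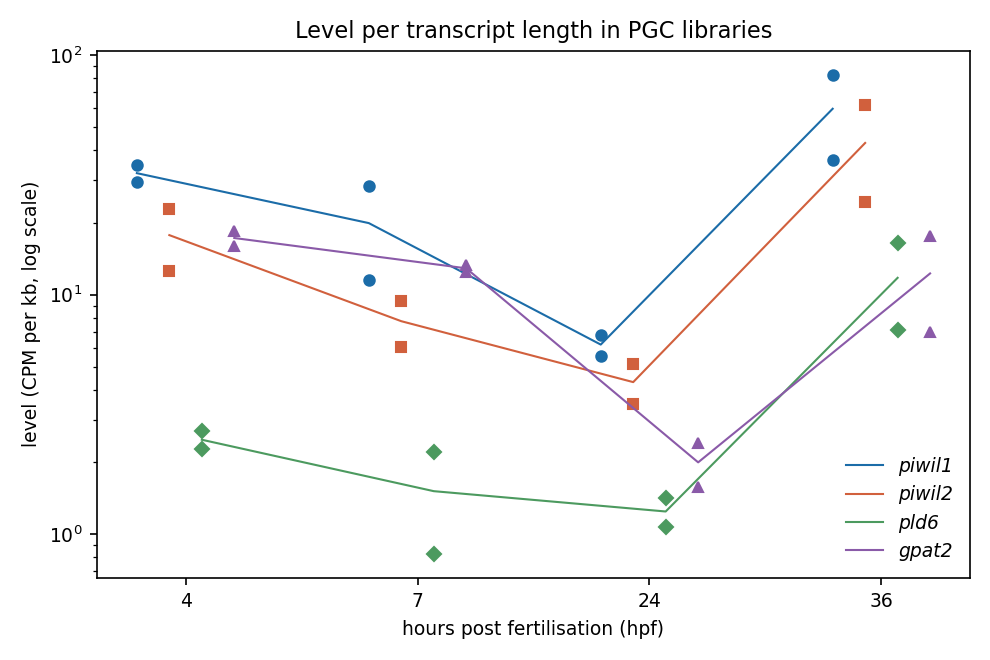
Level of the 4 genes per kilobase of effective transcript length (CPM per kb, log scale) in each PGC library at 4, 7, 24 and 36 hpf, with lines through the mean of 2 libraries. *gpat2* starts at 16.03 and 18.5 CPM per kb, well above *pld6* at 2.70 and 2.26, and both are at about 7 to 18 CPM per kb at 36 hpf.

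The 2 Piwi genes had the most similar profiles. Over the 16 libraries, on log2(CPM + 1), the Pearson correlation of *piwil1* with *piwil2* was 0.976, and of all 20535 other genes each was the one most like the other. These 16 points are 8 groups of 2 and share the contrast between germ cells and soma, so the values describe likeness only. The genes with a name and no member of the set that came closest to *piwil1* were *elavl2* (0.961), *rnf17* (0.948) and *topaz1* (0.945), and closest to *piwil2* were *rnf17* (0.958), *rbm46* (0.942) and *topaz1* (0.941). *rnf17* encodes a Tudor protein of germ cells and *elavl2* and *rbm46* encode RNA-binding proteins. For *pld6* they were *tapbp.1* (0.939), *ptx4* (0.929) and *zcchc2* (0.925), and for *gpat2* zgc:103482 (0.985), *elavl2* (0.985) and si:dkeyp-93d12.1 (0.966). *pld6* and *gpat2* were the least alike of the 4, with 0.689 over the 16 libraries and 0.394 over the 8 PGC libraries, where *piwil2* and *pld6* had 0.923.

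Of 15 further genes of the pathway, 12 had an identifier that could be paired with a name, and the study had picked 9 of these as higher in PGCs on these libraries. Among these 9, 2 were called higher in PGCs at 4 hpf (*ddx4* and *tdrd7a*), 5 at 7 hpf, 2 at 24 hpf and all 9 at 36 hpf, with median log2 fold changes of 0.67, 2.60, 3.15 and 7.42, whereas the medians over all genes tested were between 0 and 0.06. Genes with 3 counts or fewer in each soma library were then set to their lower bounds. The medians over the 9 genes at 24 and 36 hpf were 3.15 and 6.01 in this form. Those over the 4 members were 0.06, 0.80, 3.18 and 6.03 at the 4 stages. Apart from *ddx4* and *tdrd7a*, none of the 9 had a call at 4 hpf, as was so for the Piwi genes. Examples are *tdrd9*, which encodes a helicase that works with Piwi proteins in mouse (log2 fold change −0.09 ± 0.51 at 4 hpf but 7.83 ± 0.73 at 36 hpf, adjusted p = 0.000177 by edgeR's quasi-likelihood test), and *rnf17* (0.12 ± 0.49 and 5.86 ± 0.62, adjusted p = 0.000396). In PGCs from 24 to 36 hpf 4 of the 9 were called higher, namely *tdrd1* (2.83), *tdrd6* (2.71), *tdrd9* (2.95) and *rnf17* (2.96 on the log2 scale), beside changes of 1.58 for *ddx4* and 1.00 for *tdrd7a* that were not called. From 7 to 24 hpf 6 of the 9 were called lower in PGCs. Of the 3 genes that the study had not picked, *fkbp6* was too low to test. *henmt1*, which encodes the methyltransferase of piRNA ends, was at 12.5 and 22.2 CPM in PGCs of 36 hpf against 1.12 and 0 CPM in soma (adjusted p = 0.129), and *tdrkh*, a mitochondrial Tudor protein, at 15.6 and 37.4 CPM against 6.11 and 6.38 CPM (adjusted p = 0.213). Neither was called between PGCs and soma at any stage.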

How the data were processed

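Total RNA of sorted PGCs and somatic cells was made into low-input stranded libraries and sequenced. After adapter trimming, the authors used STAR for alignment to the danRer10 build and RSEM for quantification. The deposited expected counts are RSEM estimates per gene and are not normalised, and 95.2% of them are whole (tolerance 1e-06). The deposited TPM values are scaled by the authors for length and library total, and the deposited effective lengths are given in bases per gene and library. Because 1 gene accounted for between 2.84% and 46.6% of the TPM total, TPM served as an alternative only. The lists of genes higher in PGCs, which the study derived by its own comparison, were used for names and not for values.

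Expected counts were rounded, 92 spike-in rows without counts were left out, and genes were filtered (filterByExpr, at least 10 counts scaled to depth in 2 libraries and 15 in total). TMM factors lay between 0.640 and 1.61. All 16 libraries entered a fit with 8 groups in edgeR 4.0.16 (glmQLFit, glmQLFTest, R 4.3.3), with Benjamini-Hochberg adjustment. Standard errors were derived from the log2 fold change and its F statistic. Folds against a group with 3 counts or fewer in each library are lower bounds. Bounds, and the precision that depth gives, cover counting of reads without molecular identifiers. The study calls its 2 replicates biologically independent, but how they were pooled is not given in the sources used here. The p-values rest on an estimate of the spread between replicates that the 8 groups share. Replicates correlated least in PGCs of 36 hpf (Pearson r of 0.885 on log2 CPM, against 0.923 to 0.957 in the other groups). The p-values of that stage thus do not reflect the spread of that group alone.

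Alternatives were DESeq2 1.42.0, no filter, offsets from effective lengths, limma 3.58.1 on log-scaled TPM with a pseudocount of 1 or 0.1, the replicate number as a block, the libraries of 1 stage alone, and the omission of each library. The comparison from 4 to 36 hpf, the fits on PGC libraries alone and the list of somatic markers were added after the data were seen. The test was tried on simulated counts first. The members and all lists were chosen with earlier results of these data known. The text names the 4 genes, a list of 15 pathway genes, and for each of the 4 the 3 named genes with the highest correlation. Names were paired by Ensembl identifier for 12 of the 15 pathway genes and for 12 of 16 somatic markers.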

Additional observations from a re-analysis of the deposited data

Results flagged for a closer look

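The change from 4 to 36 hpf differed between PGCs and soma in 3 of the 4 genes by the test of the difference itself, which was added after the data were seen (edgeR's quasi-likelihood test, n = 2 libraries a group). The study had listed these genes as higher in PGCs at 36 hpf on the same libraries, so the result is not independent evidence. The difference in log2 fold change was 6.66 for *piwil1*, 6.79 for *piwil2* and 10.74 for *gpat2*, and the last is no measured size but a fitted value that depends on the prior count, since *gpat2* had 0 counts in soma of 36 hpf. The log2 fold changes over this span were 1.07 and −5.59 for *piwil1* and 1.47 and −5.32 for *piwil2* in PGCs and soma.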

How the results depend on the processing

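The calls of *piwil1*, *piwil2* and *gpat2* at 36 hpf were kept under every setting except the fit on the 4 libraries of that stage, in which 0 of 4 members were called, and the calls of all 4 over the stages were kept except with limma on log2(TPM + 1), which called 1. Other counts of members called moved as follows. At 24 hpf (1 of 4) DESeq2 and the fit without a filter called 3 each, and limma with either pseudocount and the 4 libraries alone called 0. For the rise in PGCs from 24 to 36 hpf (3 of 4) the scaling to the germline marker sum gave 0, length offsets 2, and DESeq2, limma with either pseudocount and no filter 4. From 7 to 24 hpf in PGCs (1 of 4, lower) the fit without a filter and PGC libraries alone under TMM called 2 lower, and the marker scaling called 2 others higher. From 4 to 36 hpf in PGCs (0 of 4) DESeq2 gave 2, limma with either pseudocount and PGC libraries alone under TMM gave 1, and the marker scaling gave 3. In soma from 4 to 7 hpf (1 of 4) limma on log2(TPM + 1) gave 0. For the difference between PGC and soma changes, DESeq2 gave 2 and no filter 3 from 7 to 24 hpf (0 of 4), no filter gave 1 from 24 to 36 hpf (0 of 4), and from 4 to 36 hpf (3 of 4) limma with either pseudocount gave 0 and the offsets from effective lengths gave 1. The cause of these shifts was not tested.

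Leaving out 1 library gave between 0 and 2 members called at 24 hpf, 3 and 4 at 36 hpf, 0 and 3 for PGCs from 24 to 36 hpf, 0 and 1 for PGCs from 7 to 24 and from 4 to 36 hpf, 0 and 3 for soma from 4 to 7 hpf, and 0 and 1 and 1 and 4 for the differences from 7 to 24 and from 4 to 36 hpf.

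Most reversals concern values near 0. At 4 hpf the log2 fold change of *gpat2* became 0.32 and 0.29 with limma (pseudocounts 0.1 and 1), 0.015 with the 4 libraries alone and 0.018 with the block. In soma from 24 to 36 hpf *piwil1* moved to 0.79 and 0.14 with limma (0.1 and 1) and to 0.56 with length offsets, and *piwil2* to −0.041 with limma on log2(TPM + 1). The difference from 7 to 24 hpf moved to −0.15 for *gpat2* and −0.20 for *pld6* with limma on log2(TPM + 1). With the marker scaling the PGC change from 7 to 24 hpf was 1.498 (*piwil1*), 2.00 (*piwil2*), 2.99 (*pld6*) and 0.87 (*gpat2*), and that of *gpat2* from 4 to 36 hpf was 1.41. Leaving out 1 library moved the log2 fold change at 4 hpf between −0.26 and 0.30 for *gpat2*, −0.071 and 0.16 for *piwil1*, −0.15 and 0.84 for *piwil2*, and −0.39 and 0.76 for *pld6*. It moved *piwil1* at 7 hpf between −0.0045 (without soma 7 hpf replicate 2) and 2.05, and the differences from 4 to 7 hpf between −0.044 and 2.01 for *piwil1* and −0.085 and 2.30 for *piwil2*. *pld6* moved between −0.81 and 0.60 in PGCs from 7 to 24 hpf (the latter without PGC 7 hpf replicate 2) and between −0.25 and 4.68 for the difference over that step, and *piwil1* in soma from 24 to 36 hpf between −1.16 and 2.67 (the latter without soma 24 hpf replicate 1).

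No label ties the replicate numbers to a shared batch, and each comparison has 2 of them. Deviations of same-numbered PGC and soma libraries correlated at 0.298, 0.101, 0.235 and 0.310 at 4, 7, 24 and 36 hpf. With the block, *pld6* was not called at 36 hpf (adjusted p = 0.05002, so 3 of 4 members were called) nor in soma from 4 to 7 hpf (adjusted p = 0.0516, so 0 members were called), and no other call of a member changed. Depth limits *pld6* most, which had at most 21 counts in any library before 36 hpf.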
